A study of Mus musculus with 9 samples.

Results

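The 37 genes described here encode the machinery of autophagy, and they were taken from a table of mouse hippocampal RNA-seq counts by gene symbol. All 37 were found among the 57010 rows of the table, each as a single row, and all 37 passed the filter on low counts that left 17967 genes for testing. The table held 9 libraries of hippocampal tissue from C57BL/6J mice, 3 in each of 3 groups, and every group had undergone surgery. CBD mice had a spinal nerve tied off and then received intraperitoneal cannabidiol, a non-intoxicating cannabinoid of the hemp plant, at 5 mg/kg for 15 days. SNL mice had the same spinal nerve ligation, a model of neuropathic pain, and received solvent. Sham mice had the L5 spinal nerve exposed without a ligature and also received solvent. The series title places the comparison in a study of cannabidiol in pain with depression. No mouse received cannabidiol without ligation. Age and sex are not given in the labels, and neither is whether each library came from a separate animal, so the p-values below measure the spread between these libraries, which may be technical.

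Macroautophagy encloses cytoplasm in a double membrane, the autophagosome, and delivers it to the lysosome for breakdown. The ULK kinase complex starts the process, and a class III phosphatidylinositol 3-kinase complex marks the membrane. ATG9 and ATG2 proteins supply and transfer lipid, and WIPI proteins bind the marked membrane. A pair of ubiquitin-like conjugation systems then attaches ATG8 proteins (the LC3 and GABARAP families) to the membrane, where receptors that carry cargo bind them. In neurons autophagosomes form largely at axon ends and travel to the cell body, and mice lacking Atg5 or Atg7 in neurons develop neurodegeneration. Much of the control of autophagy acts on proteins and on membrane traffic, so RNA levels describe the supply of components and not the flux through the pathway.

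TFEB, a transcription factor that drives lysosomal and autophagy genes, binds sites built around the E-box CACGTG, often extended to CACGTGAC. Promoter windows from 250 bases before to 50 bases after the annotated start were available for 31 of the 37 genes (RefSeq, GRCm38.p6, matched by symbol). CACGTG, which reads the same on both strands, lay in the windows of 5 of these 31 genes (16.1%), against 8.09% of 27025 genes with a window. CACGTGAC, searched on both strands and always overlapping a CACGTG, lay in 4 of the 31 (12.9%), against 2.55% of all genes with a window. The stretches that hold the E-boxes are printed because Tfeb and Lamp1 are both among the genes described here, with the E-box in capitals, 5′ to 3′ on the strand of the gene. They lie at chr8:13159080-13159160 (Lamp1, plus strand), chr16:45158715-45158783 (Atg3, plus strand), chr6:114670944-114670989 (Atg7, plus strand), chr10:44268305-44268338 (Atg5, plus strand) and chr14:47568418-47568447 (Atg14, minus strand).
Lamp1: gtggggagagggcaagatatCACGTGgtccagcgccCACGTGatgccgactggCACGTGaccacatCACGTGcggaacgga
Atg3: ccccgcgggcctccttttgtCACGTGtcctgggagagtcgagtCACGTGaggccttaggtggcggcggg
Atg7: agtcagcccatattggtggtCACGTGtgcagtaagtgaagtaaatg
Atg5: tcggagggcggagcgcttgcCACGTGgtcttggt
Atg14: aaaacaaaatccCACGTGactggccctgag
Lamp1 held 4 copies, beginning 61, 45, 28 and 15 bases before the start, and Atg3 held 2, beginning 94 and 71 bases before it. The E-box of Atg7 began 132 bases before the start, that of Atg5 14 bases before it, and that of Atg14 spanned the start itself. A match describes letters and is not a measurement of binding.

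The libraries summed to between 16972620 and 20470546 expected counts. After scaling to a common library size, the 37 genes summed to 0.332% to 0.376% of that size. The lowest rounded count of any of the 37 in any library was 83, for Atg10. The tissue was checked by 10 genes of hippocampal pyramidal and granule neurons, all detected in every group, whose summed level was 1088 to 2267 CPM (counts scaled to a common library size) in CBD, 1168 to 1968 CPM in SNL and 1754 to 3174 CPM in sham libraries. Markers of neighbouring regions and of other cells differed between groups as well. The 9 thalamus and habenula genes summed to 488.5 to 663.6 CPM in CBD, 545.9 to 1318 CPM in SNL and 332.4 to 468.4 CPM in sham libraries, and none was at 0. Hypothalamus genes, 9 in number, summed to 384.3 CPM in CBD 1, 298.9 CPM in SNL 1 and 65.9 CPM in SNL 2, against 6.58 to 7.92 CPM in the 6 other libraries. The 9 myelin genes summed to 8251 to 9664 CPM in CBD, 10523 to 14917 CPM in SNL and 8666 to 11765 CPM in sham libraries. Endothelium and pericyte genes, 8 in number, summed to 434.8 to 493.7 CPM in CBD, 480.5 to 618.0 CPM in SNL and 350.8 to 409.6 CPM in sham libraries. The 7 astrocyte genes summed to 3285 to 4187 CPM in CBD, 2842 to 3287 CPM in SNL and 3443 to 4131 CPM in sham libraries, and the 9 microglia genes to 320.6 to 377.9 CPM in CBD, 350.0 to 435.0 CPM in SNL and 370.7 to 459.3 CPM in sham libraries. The 8 choroid plexus genes summed to 1169 to 1899 CPM in CBD, 267.1 to 2223 CPM in SNL and 144.0 to 1316 CPM in sham libraries. The part of these regional and cellular differences in the values below was not tested, and in bulk tissue fewer cells of a type and less RNA per cell cannot be told apart. No library stood for another: the closest pair, CBD 2 and CBD 3, differed by a chi-square of 6.44 per gene, where sampling noise alone gives about 1.

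Per kilobase of transcript, the autophagy genes spanned a 177.1-fold range of mean level over the 9 libraries. Gabarapl1, a GABARAP-family ATG8 protein, stood highest at 639.3 CPM per kb. It was followed by Sqstm1 (p62, the ubiquitin-binding cargo receptor) at 209.2 CPM per kb and Lamp1, an abundant lysosomal membrane glycoprotein, at 138.9 CPM per kb. All 5 ATG8 genes were among the 7 highest, with Map1lc3b at 117.6, Gabarap at 91.7, Gabarapl2 at 86.7 and Map1lc3a at 84.3 CPM per kb. The lowest 4 were Tfeb at 4.54, Atg4d at 4.45, Atg10 at 3.66 and Atg4a at 3.61 CPM per kb. The order rests on median lengths of annotated transcripts, 5951 bases for Atg4d, and not on the transcripts expressed in these libraries. Of 36 neighbouring pairs in this order, only 6 had ranges over the 9 libraries that did not overlap, among them Gabarapl1 above Sqstm1, Sqstm1 above Lamp1, Becn1 above Nbr1 and Atg14 above Tfeb.

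**Figure D1:**
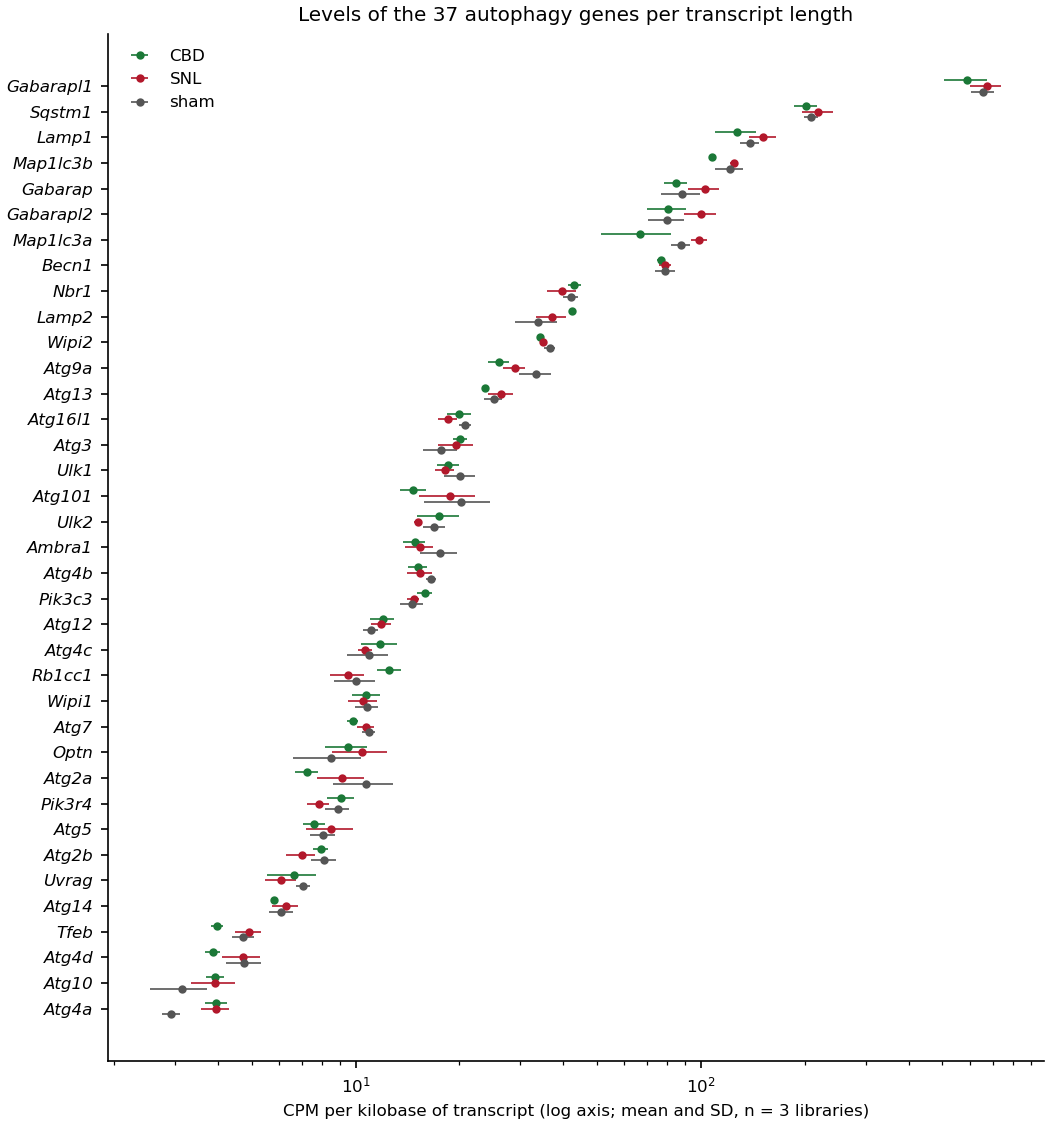
Level of each of the 37 autophagy genes in CPM per kilobase of transcript on a log axis, genes ordered by mean level, with the mean (point) and SD (bar) of 3 libraries for CBD, SNL and sham. Gabarapl1 stands highest at a mean of 639.3 CPM per kb and Atg4a lowest at 3.61, and for most genes the bars of the 3 groups overlap.

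No autophagy gene passed an adjusted p of 0.05 in any comparison by edgeR's quasi-likelihood test, and neither did any of the 17967 genes tested (0%). Between SNL and sham libraries 2 of the 37 genes were at an unadjusted p under 0.05, against 13.8% of all genes. Both were higher in SNL (5.83% of all genes) and 0 of 37 were lower (7.96% of all genes). The groups did not overlap for 5 of the 37 (17.7% of all genes), 3 higher in SNL (7.94%) and 2 lower (9.81%). By sign alone 18 of 37 fold changes were above 0 (51.6% of all genes) and 19 below (48.4%). These shares are near or under those of all genes, and the members' median log2 fold change was 0.00, against 0.01 over all genes.

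Between CBD and SNL libraries 5 of the 37 genes were at an unadjusted p under 0.05, close to the 13.7% of all genes. Of these, 1 was higher in CBD (6.5% of all genes) and 4 were lower (7.2%). The groups did not overlap for 9 of 37 (19.3% of all genes), 3 higher in CBD (9.18%) and 6 lower (10.1%). Fold changes were above 0 for 16 (49.9% of all genes) and below 0 for 21 (50.1%), with a median of -0.04, against 0.00 over all genes. Both comparisons use the same 3 SNL libraries, so their values for one gene are not independent.

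Between CBD and sham libraries 8 of the 37 genes were at an unadjusted p under 0.05, against 16.3% of all genes. In CBD 3 were higher (7.41% of all genes) and 5 lower (8.87%). The groups did not overlap for 11 of 37 (21.7% of all genes), 4 higher in CBD (10.6%) and 7 lower (11.1%). Fold changes were above 0 for 13 (50.1% of all genes) and below 0 for 24 (49.9%), with a median of -0.06, against 0.00 over all genes. Without CBD 3 the count at an unadjusted p under 0.05 was 4 (10% of all genes), and without sham 2 it was 5 (10.9%).

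The other counts also moved with single libraries. For SNL against sham the count at an unadjusted p under 0.05 was 1 without SNL 1 (7.98% of all genes), 1 without sham 1 (8.31%) and 6 without sham 3 (19.1%). For CBD against SNL it was 2 without CBD 2 (7.73% of all genes), without CBD 3 (6.18%) or without SNL 1 (10.2%). Precision was similar in the 3 comparisons: the standard errors of the log2 fold changes ran from 0.08 to 0.19. The 95% interval stayed within a 1.5-fold difference either way for 33 of 37 genes in SNL against sham, for 31 in CBD against SNL and for 27 in CBD against sham.

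Other tests on the same counts called a few members at an adjusted p under 0.05. DESeq2's Wald test called 0 of 37 in SNL against sham, 1 in CBD against SNL and 1 in CBD against sham, among 365, 157 and 384 genes in all. The calls were Map1lc3a for CBD against SNL (log2 fold change -0.57, adjusted p = 0.0371) and Atg2a for CBD against sham (-0.56, adjusted p = 0.0419). limma with voom and sample weights called 0, 3 and 3 members, among 1, 1132 and 1051 genes. They were Map1lc3a, Gabarapl2 and Rb1cc1 for CBD against SNL, and Atg9a, Map1lc3a and Atg2a for CBD against sham.

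**Figure D2:**
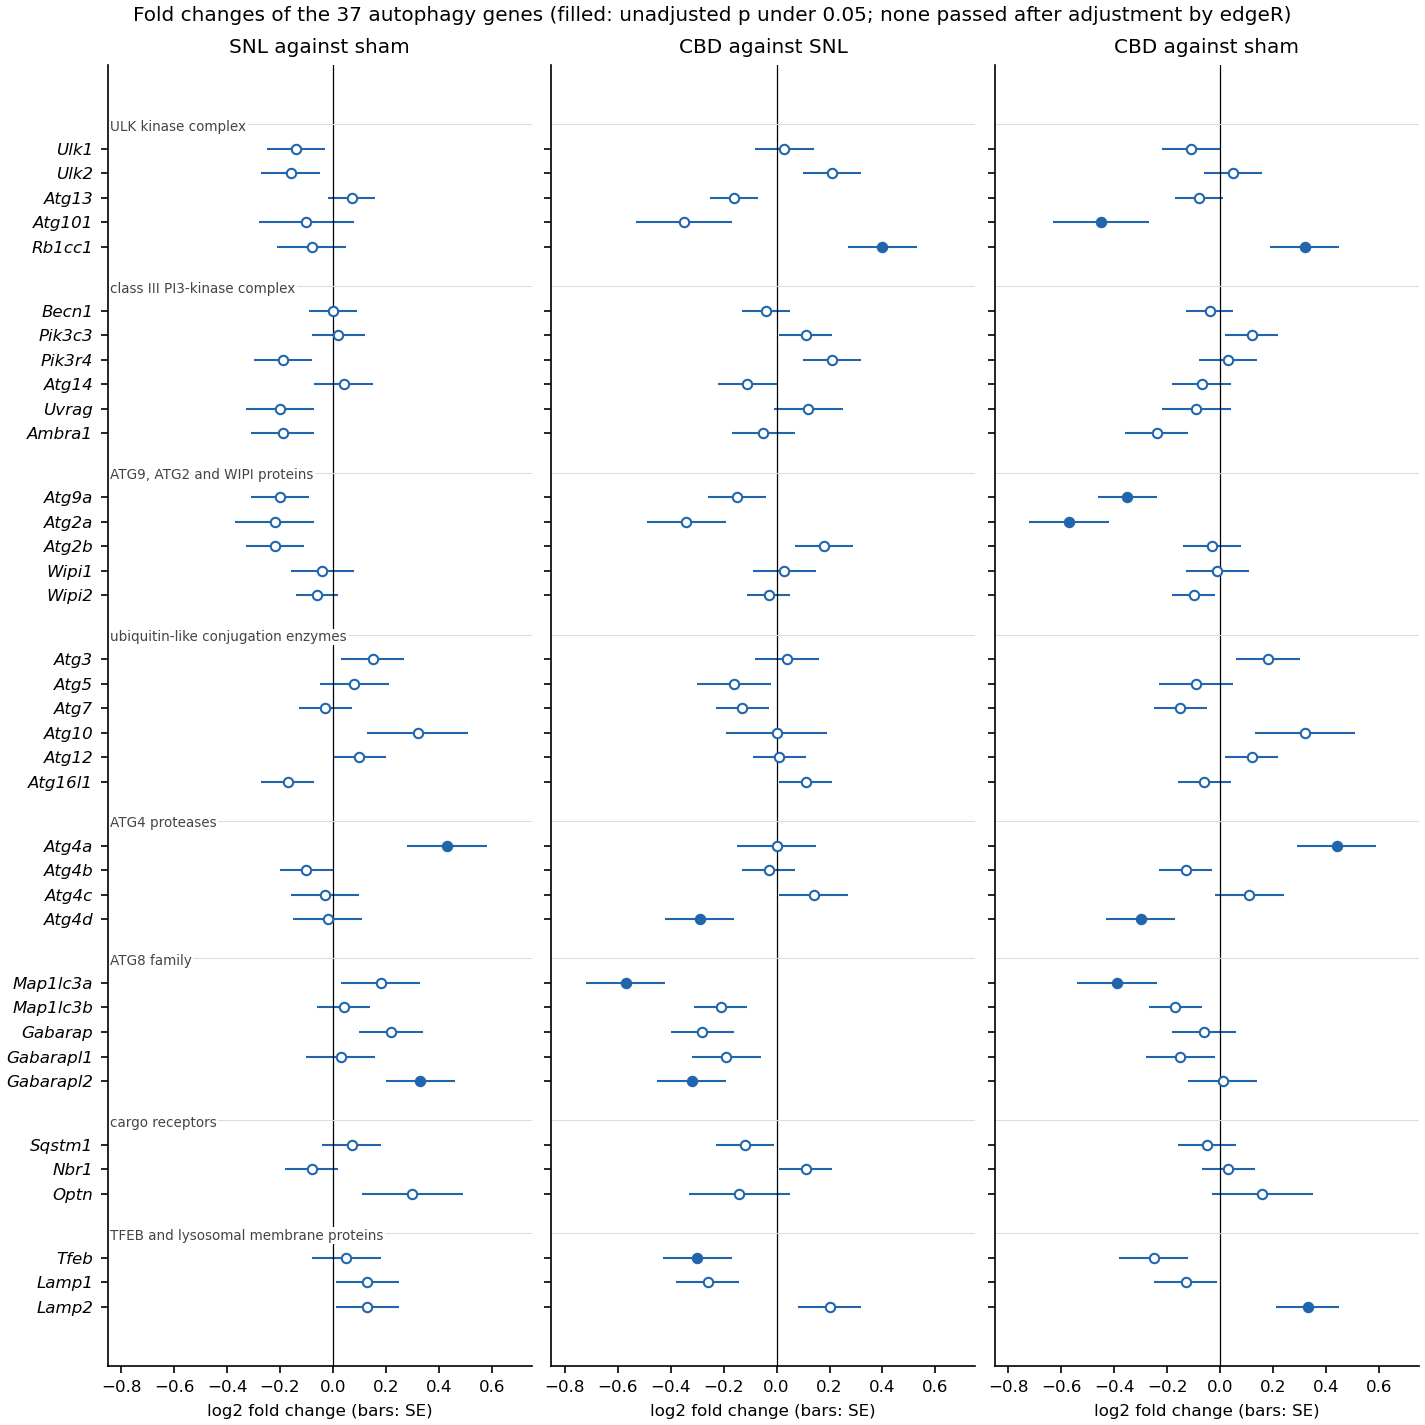
Log2 fold changes of the 37 autophagy genes by edgeR (points) with their SE (bars), grouped by role, in 1 panel for each comparison. Filled points are at an unadjusted p under 0.05. All 5 ATG8 genes lie below 0 in CBD against SNL and above 0 in SNL against sham (4 of 5 in each when GC- and length-adjusted), and 0 of the 37 genes passed an adjusted p of 0.05.

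Across the 37 genes the fold changes ran with the GC content of the transcript. In CBD against sham Spearman's rho between log2 fold change and GC percent was -0.86 over the 37 genes and -0.57 over the 17642 tested genes with a GC value. It was -0.59 over the 37 genes and -0.45 over all in CBD against SNL, and -0.34 and -0.15 in SNL against sham. Of the 18 autophagy genes above the median GC content of 51.4%, 17 were lower in CBD than in sham, with a median log2 fold change of -0.15. Of the 19 at or below it 7 were lower, with a median of 0.05. Transcript length ran with the fold changes too, with rho -0.65 over the 37 genes in SNL against sham and 0.45 in CBD against SNL, against -0.21 and 0.34 over all genes. These points share the same libraries and are given as a description.

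Fitting each library's trend with GC content and length over all genes and removing it by offsets lowered the counts in CBD against sham from 8 to 2 members at an unadjusted p under 0.05 (6.9% of all genes) and in SNL against sham from 2 to 1 (13.3%). In CBD against SNL the count was again 5 (6.8%), made up of Atg2a, Atg4d, Atg5 and Gabarapl2 lower and Ulk1 higher. With offsets rho with GC over the 37 genes was -0.12 in CBD against sham, and the fold changes of the 37 genes spanned -0.28 to 0.21 there. No member or other gene had an adjusted p under 0.05 with offsets in edgeR. What lay behind the GC and length trends was not tested. Values with these offsets, called GC- and length-adjusted, are given below beside the fold changes as counted that they moved most.

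**Figure D3:**
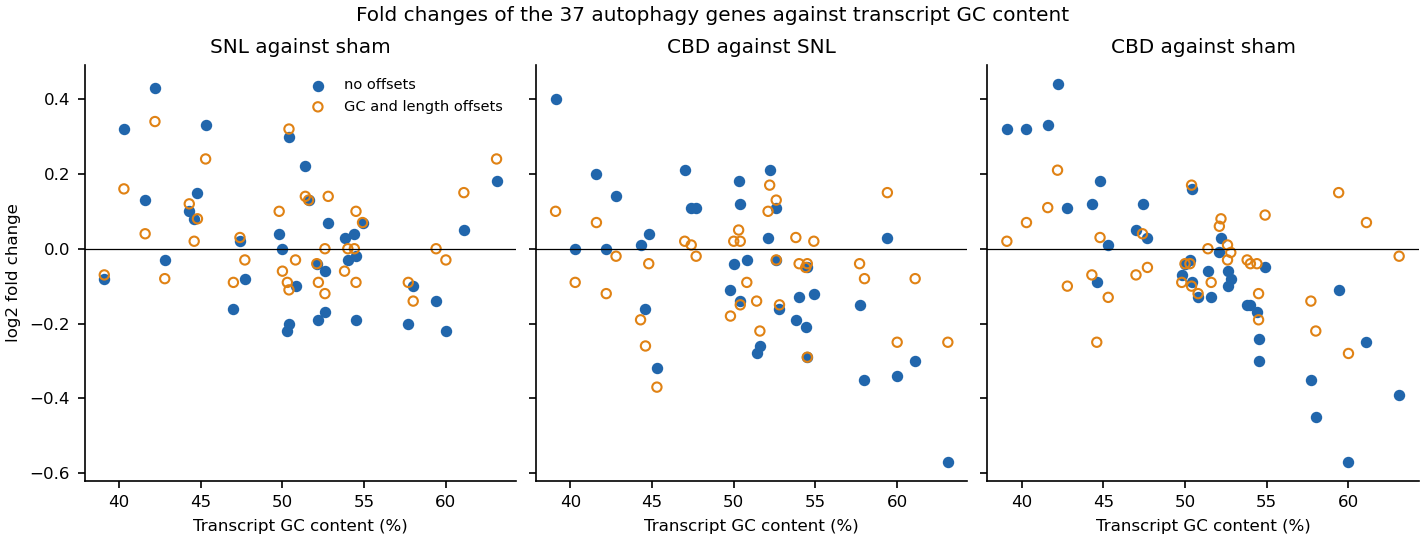
Log2 fold change of each of the 37 autophagy genes (y axis) against the GC percent of its transcript (x axis), in 1 panel for each comparison, as counted (filled) and with GC and length offsets (open). Genes with high GC lie lowest in CBD against sham (rho -0.86), and Rb1cc1, lowest in GC at 39.1%, and Map1lc3a, highest at 63.1%, lie near opposite ends.

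In the ULK complex Rb1cc1 had higher values and Atg101 lower values in CBD than in sham libraries, and neither passed the adjusted threshold. Rb1cc1 (FIP200), the scaffold of the complex, had 89.1, 93.2 and 104 CPM in CBD libraries 1 to 3, 77.4, 76.6 and 62.8 CPM in SNL libraries 1 to 3 and 67.5, 73.7 and 87.4 CPM in sham libraries 1 to 3. All 3 CBD libraries lay above all SNL and all sham libraries. The log2 fold change was 0.40 ± 0.13 (SE) in CBD against SNL (edgeR, adjusted p = 0.306) and 0.32 ± 0.13 in CBD against sham (adjusted p = 0.259). GC- and length-adjusted, these were 0.10 and 0.02. Atg101, which stabilises Atg13 in the complex, had 18.9, 20.2 and 16.9 CPM in CBD, 24.3, 19.2 and 28.0 CPM in SNL and 21.7, 31.9 and 23.2 CPM in sham libraries. CBD libraries lay below sham libraries and overlapped those of SNL. Its log2 fold change in CBD against sham was -0.45 ± 0.18 (edgeR, adjusted p = 0.26), and -0.22 when GC- and length-adjusted.

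The kinases themselves differed less. Ulk1, the kinase that phosphorylates most members of the complex, had 88.0, 81.3 and 75.9 CPM in CBD, 77.0, 85.8 and 77.0 CPM in SNL and 98.7, 81.6 and 84.4 CPM in sham libraries. The groups overlapped in every comparison. Its 95% intervals were -0.38 to 0.09 in SNL against sham and -0.21 to 0.27 in CBD against SNL, both crossing 0. GC- and length-adjusted, Ulk1 was 0.00 in SNL against sham, 0.15 in CBD against SNL and 0.15 in CBD against sham (both at an unadjusted p under 0.05 by edgeR), so its sign in CBD against sham, -0.11 as counted, turned with this setting. Its partner kinase Ulk2 had 90.5, 94.0 and 116 CPM in CBD, 86.5, 89.1 and 84.9 CPM in SNL and 101, 102 and 88.8 CPM in sham libraries. CBD lay above SNL without overlap, at a log2 fold change of 0.21 ± 0.11 (edgeR, adjusted p = 0.442), and 0.02 when GC- and length-adjusted. Atg13, the regulatory subunit, averaged 84.7 ± 1.53 CPM in CBD, 94.4 ± 7.7 CPM in SNL and 89.8 ± 5.32 CPM in sham libraries (SD, n = 3 each), and its groups overlapped.

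None of the class III phosphatidylinositol 3-kinase genes was at an unadjusted p under 0.05 as counted. Becn1 (Beclin 1), the regulatory core of the complex, had 111, 116 and 116 CPM in CBD, 119, 112 and 121 CPM in SNL and 117, 126 and 109.9 CPM in sham libraries. The groups overlapped throughout. Its log2 fold change was 0.00 in SNL against sham (95% interval -0.20 to 0.20) and -0.04 in both CBD comparisons, where GC- and length-adjusted values were 0.02 against SNL and -0.04 against sham. The lipid kinase Pik3c3 (VPS34) ranged over the 9 libraries from 41.1 to 51.0 CPM, and Atg14, the subunit that directs the complex to autophagosome formation, from 20.1 to 24.8 CPM. Pik3r4 (VPS15), the regulatory kinase subunit, had 42.7, 38.9 and 46.6 CPM in CBD, 33.8, 37.8 and 38.9 CPM in SNL and 45.4, 38.7 and 41.5 CPM in sham libraries. SNL was the lower group by mean, and it overlapped both others. Its fitted log2 fold change was -0.19 ± 0.11 in SNL against sham (edgeR, adjusted p = 0.48) and 0.21 ± 0.11 in CBD against SNL (adjusted p = 0.416), or -0.09 and 0.17 when GC- and length-adjusted.

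Uvrag, the subunit of the second, endosomal form of the kinase complex, had 28.0, 35.9 and 38.6 CPM in CBD, 27.7, 33.1 and 33.6 CPM in SNL and 36.7, 37.7 and 34.4 CPM in sham libraries. SNL libraries lay below all sham libraries, while CBD libraries spread over both (log2 fold change -0.20 ± 0.13 in SNL against sham, edgeR, adjusted p = 0.521; -0.11 when GC- and length-adjusted). Ambra1, a scaffold that recruits a ubiquitin ligase to Beclin 1 and ULK1, averaged 74.5 ± 5.45 CPM in CBD, 77.0 ± 7.15 CPM in SNL and 87.9 ± 10.9 CPM in sham libraries (SD, n = 3 each), all overlapping. Its log2 fold change was -0.24 ± 0.12 in CBD against sham (edgeR, adjusted p = 0.341), and -0.12 when GC- and length-adjusted. Atg14 was below SNL in all 3 CBD libraries at a log2 fold change of -0.11 ± 0.11 (edgeR, adjusted p = 0.678), and -0.18 when GC- and length-adjusted.

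All 5 genes for ATG9, ATG2 and WIPI proteins had a log2 fold change below 0 in SNL against sham and in CBD against sham, with medians of -0.20 and -0.10. Without sham 1 the counts below 0 were 4 of 5 and 3 of 5, with medians of -0.06 and -0.07, and without CBD 2 the count in CBD against sham was 3 of 5. With no filter on low counts 4 of 5 were below 0 in CBD against sham. GC- and length-adjusted, 4 of 5 were below 0 in each, with medians of -0.04. These comparisons share the sham libraries, and as counted only Atg2a and Atg9a were at an unadjusted p under 0.05, in CBD against sham. Atg2a, a lipid transfer protein that bridges the endoplasmic reticulum and the growing membrane, had 48.6, 47.5 and 42.2 CPM in CBD, 56.0, 68.2 and 50.8 CPM in SNL and 83.3, 58.3 and 63.0 CPM in sham libraries. All CBD libraries lay below all SNL and all sham libraries. This amounted to a log2 fold change of -0.57 ± 0.15 in CBD against sham (edgeR, adjusted p = 0.213) and -0.34 ± 0.15 in CBD against SNL (adjusted p = 0.368). GC- and length-adjusted, it was -0.28 in CBD against sham (edgeR, adjusted p = 0.711) and -0.25 in CBD against SNL (adjusted p = 0.728).

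Atg9a, the lipid scramblase carried on Golgi-derived vesicles, had 114, 101 and 101 CPM in CBD, 110.0, 126 and 114 CPM in SNL and 150.1, 132 and 121 CPM in sham libraries. CBD lay below sham without overlap, and SNL lay between them and overlapped both. The log2 fold change was -0.35 ± 0.11 in CBD against sham (edgeR, adjusted p = 0.216) and -0.20 ± 0.11 in SNL against sham (adjusted p = 0.436). GC- and length-adjusted, these were -0.14 and -0.09. Atg2b, the second lipid transfer gene, had 61.9, 56.4 and 61.4 CPM in CBD, 49.9, 58.6 and 49.6 CPM in SNL and 65.0, 55.4 and 63.2 CPM in sham libraries. SNL was lower by mean than both other groups with overlap, at log2 fold changes of -0.22 ± 0.11 in SNL against sham (edgeR, adjusted p = 0.398) and 0.18 ± 0.11 in CBD against SNL (adjusted p = 0.466), or -0.09 and 0.05 when GC- and length-adjusted. Wipi2, which binds the lipid made by VPS34 and recruits ATG16L1, was the steadiest gene of the 37, with 121, 122 and 122 CPM in CBD, 127, 122 and 125 CPM in SNL and 134, 131 and 125 CPM in sham libraries and a coefficient of variation of 3.6% over the 9 libraries. CBD lay just below sham (log2 fold change -0.10 ± 0.08, edgeR, adjusted p = 0.583; -0.03 when GC- and length-adjusted). Wipi1, its relative, ranged from 19.4 to 24.3 CPM.

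Among the conjugation enzymes no gene was at an unadjusted p under 0.05 as counted. Atg10, the E2-like enzyme that joins ATG12 to ATG5, had 5.79, 6.35 and 6.49 CPM in CBD, 7.24, 5.73 and 5.63 CPM in SNL and 4.23, 4.65 and 6.02 CPM in sham libraries. Sham 3 overlapped both other groups. Its fitted log2 fold change was 0.32 ± 0.19 in SNL against sham (edgeR, adjusted p = 0.481) and 0.32 ± 0.19 in CBD against sham (adjusted p = 0.418), or 0.16 and 0.07 when GC- and length-adjusted. Atg16l1, which places the conjugation complex on the membrane, had 56.2, 64.0 and 65.3 CPM in CBD, 53.3, 58.3 and 60.5 CPM in SNL and 67.1, 64.1 and 62.0 CPM in sham libraries. SNL lay below sham without overlap, by a log2 fold change of -0.17 ± 0.10 (edgeR, adjusted p = 0.47).

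The remaining enzymes were Atg7, the E1-like enzyme of both systems, Atg3, the E2-like enzyme for ATG8 proteins, and the conjugate partners Atg5 and Atg12. Atg7 averaged 24.5 ± 0.854 CPM in CBD, 26.8 ± 1.45 CPM in SNL and 27.3 ± 1.13 CPM in sham libraries, and Atg3 averaged 41.3 ± 2.01 CPM in CBD, 40.3 ± 4.71 CPM in SNL and 36.3 ± 4.07 CPM in sham libraries (SD, n = 3 each). CBD lay below sham for Atg7 and above sham for Atg3 without overlap, at log2 fold changes of -0.15 and 0.18, both with an unadjusted edgeR p above 0.1, and of -0.04 and 0.03 when GC- and length-adjusted. Atg5 ranged from 16.98 to 23.6 CPM and Atg12 from 49.7 to 62.3 CPM over the 9 libraries, with overlap in every comparison. In CBD against SNL Atg5 was at -0.16 as counted and at -0.26 when GC- and length-adjusted. The second value was at an unadjusted p under 0.05 by edgeR. Of the genes whose promoter windows are printed above, Atg3, Atg7, Atg5, Atg14 and Lamp1, none was at an unadjusted p under 0.05 as counted.

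The ATG4 cysteine proteases prepare ATG8 proteins for conjugation and release them again. Atg4a had 7.96, 9.03 and 9.15 CPM in CBD, 8.52, 9.57 and 7.97 CPM in SNL and 6.58, 6.72 and 6.02 CPM in sham libraries. All 6 ligated libraries lay above all 3 sham libraries. This amounted to a log2 fold change of 0.43 ± 0.15 in SNL against sham (edgeR, adjusted p = 0.27), 0.44 ± 0.15 in CBD against sham (adjusted p = 0.225) and 0.00 ± 0.15 in CBD against SNL. GC- and length-adjusted it was 0.34 in SNL against sham, 0.21 in CBD against sham and -0.12 in CBD against SNL. Atg4d showed another pattern, with 22.4, 24.2 and 22.3 CPM in CBD, 26.6, 32.1 and 25.4 CPM in SNL and 30.6, 24.6 and 29.9 CPM in sham libraries. All CBD libraries lay below all others. Its log2 fold change was -0.29 ± 0.13 in CBD against SNL (edgeR, adjusted p = 0.358) and -0.30 ± 0.13 in CBD against sham (adjusted p = 0.28). GC- and length-adjusted, these were -0.29 and -0.19, the first still at an unadjusted p under 0.05. Atg4b, the main protease of the family for LC3, ranged from 59.5 to 70.8 CPM and Atg4c from 30.1 to 38.6 CPM, and their groups overlapped.

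The 5 ATG8 genes all had a log2 fold change above 0 in SNL against sham, with a median of 0.18, and all below 0 in CBD against SNL, with a median of -0.28. The SNL libraries are in both comparisons. GC- and length-adjusted, Gabarapl1 stood at -0.06 and 0.03, and the medians were 0.14 in SNL against sham and -0.14 in CBD against SNL. In SNL against sham 3 of 5 were above 0 without sham 1 (median 0.12) and 4 of 5 without SNL 1, whereas in CBD against SNL all 5 were below 0 whichever library was left out. In CBD against sham, 4 were below 0 and Gabarapl2 was at 0.01, with a median of -0.15, which was -0.07 without CBD 3. GC- and length-adjusted, all 5 were below 0 there, with a median of -0.03. Summed over the 5 genes, the level was 1141.6, 959.9 and 921.5 CPM in CBD, 1282.7, 1099.3 and 1208.6 CPM in SNL and 1004.4, 1179.6 and 1161.7 CPM in sham libraries. CBD 1 overlapped SNL 2, and sham overlapped both groups. The summed markers of myelin, of thalamus and habenula, and of endothelium and pericytes, given above, were likewise higher by mean in SNL than in the other groups. Those of hippocampal pyramidal and granule neurons and of astrocytes were lower by mean in SNL than in the other groups. The part of any of these markers in the ATG8 values was not tested.

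Map1lc3a (LC3A) had 93.1, 68.8 and 60.4 CPM in CBD, 116, 104 and 109.6 CPM in SNL and 90.3, 103 and 98.7 CPM in sham libraries. All CBD libraries lay below all SNL libraries, while CBD 1 lay within the sham range and CBD 2 and CBD 3 below it. The log2 fold change was -0.57 ± 0.15 in CBD against SNL (edgeR, adjusted p = 0.306), the smallest p among the 37 genes in that comparison, and -0.39 ± 0.15 in CBD against sham (adjusted p = 0.248). GC- and length-adjusted, these were -0.25 and -0.02. In SNL against sham Map1lc3a was at 0.18 ± 0.15 (adjusted p = 0.613 by edgeR), with SNL above sham without overlap.

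Gabarapl2 (GATE-16) had 154, 123 and 126 CPM in CBD, 188, 163 and 153 CPM in SNL and 116, 138 and 147 CPM in sham libraries. SNL lay above sham without overlap, CBD 1 lay just above SNL 3, and CBD and sham overlapped. Its fitted log2 fold change was 0.33 ± 0.13 in SNL against sham (edgeR, adjusted p = 0.316), -0.32 ± 0.13 in CBD against SNL (adjusted p = 0.34) and 0.01 ± 0.13 in CBD against sham. GC- and length-adjusted, it was 0.24 in SNL against sham, -0.37 in CBD against SNL and -0.13 in CBD against sham, where its sign turned, and only the value in CBD against SNL was at an unadjusted p under 0.05. Leaving out the 3 libraries with hypothalamus RNA (CBD 1, SNL 1 and SNL 2) left SNL 3 as the only SNL library. With those offsets Gabarapl2 was then at 0.08 in SNL against sham and -0.33 in CBD against SNL. Both values rest on SNL 3 alone for the SNL side, so the spread within SNL is not measured there.

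Map1lc3b (LC3B), the usual marker of autophagosomes, had 179, 177 and 178 CPM in CBD, 211, 201 and 204 CPM in SNL and 178, 211 and 211 CPM in sham libraries. CBD libraries were close to each other and lay below SNL, and sham 1 lay within the CBD range. This amounted to a log2 fold change of -0.21 ± 0.10 in CBD against SNL (edgeR, adjusted p = 0.375) and 0.04 ± 0.10 in SNL against sham, or -0.05 and 0.00 when GC- and length-adjusted. Gabarap had 96.8, 83.9 and 86.0 CPM in CBD, 116, 94.9 and 112 CPM in SNL and 79.7, 104 and 94.0 CPM in sham libraries. SNL was highest by mean and overlapped both others, at 0.22 ± 0.12 in SNL against sham (edgeR, adjusted p = 0.457) and -0.28 ± 0.12 in CBD against SNL (adjusted p = 0.365), which were 0.14 and -0.14 when GC- and length-adjusted. Gabarapl1, the most abundant of the 37, averaged 532.4 ± 76.4 CPM in CBD, 605.6 ± 61.8 CPM in SNL and 591.9 ± 45.5 CPM in sham libraries (SD, n = 3 each), all overlapping.

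**Figure D4:**
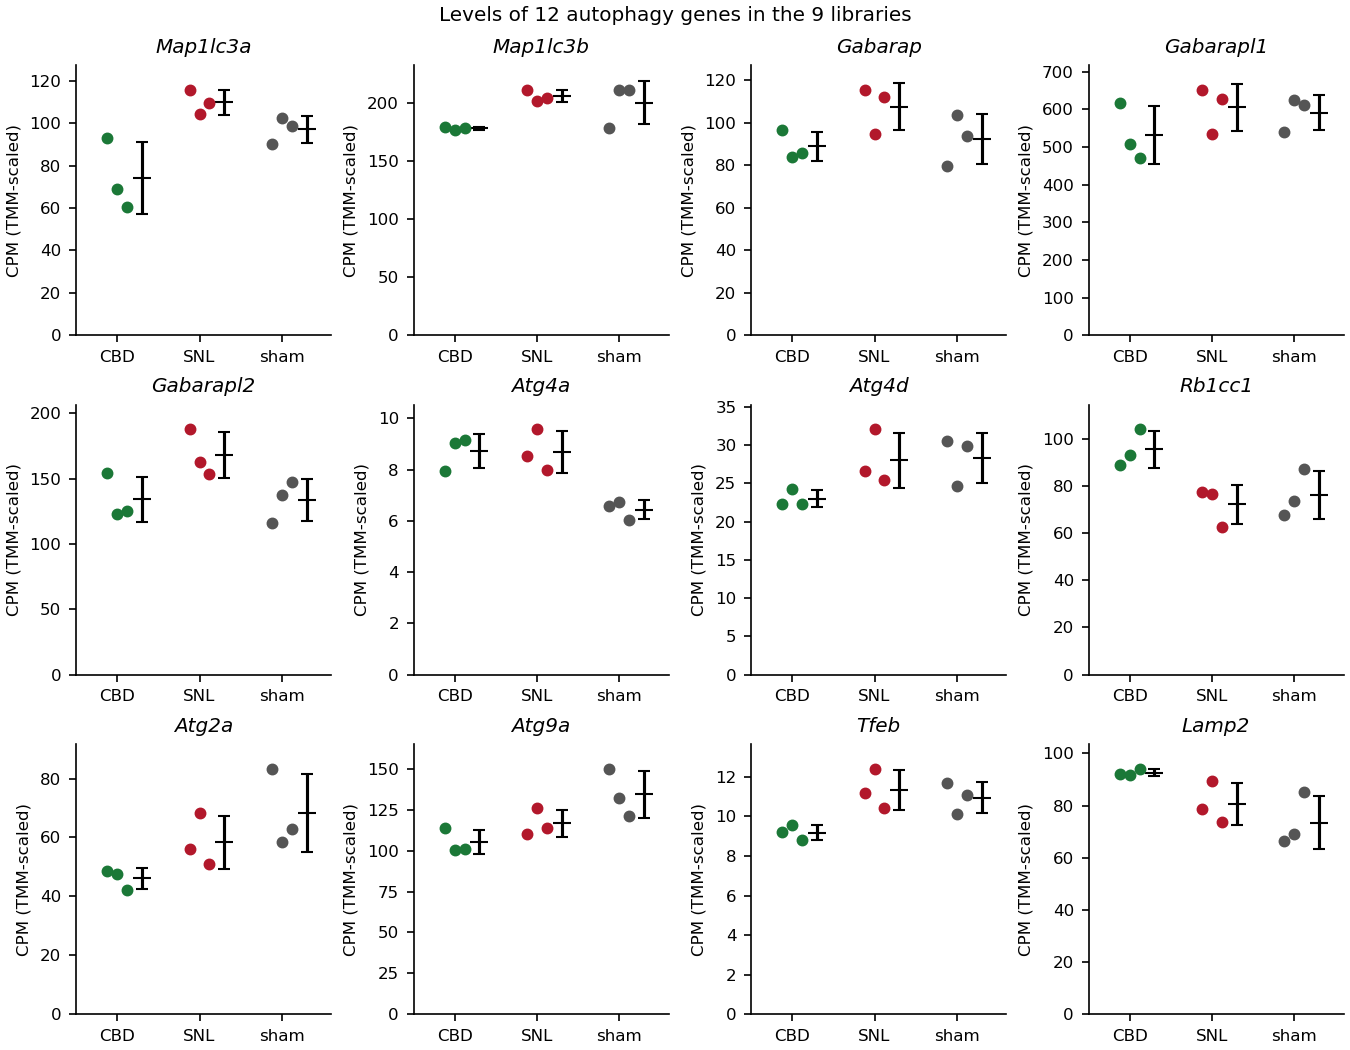
Levels in CPM of 12 autophagy genes (the ATG8 family and 7 genes with small p-values or defining roles), 1 panel for each gene, with 1 point for each library and the mean ± SD beside each group of 3 (CBD, SNL, sham). Map1lc3a is lower in all 3 CBD than in all 3 SNL libraries, Atg2a is lowest in CBD, and Atg4a is higher in all 6 ligated libraries than in sham.

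None of the 3 cargo receptors was at an unadjusted p under 0.05 in any comparison. Sqstm1 had 437, 416 and 377 CPM in CBD, 460.1, 393 and 480.2 CPM in SNL and 439.6, 402 and 431 CPM in sham libraries. The groups overlapped in every comparison, with 95% intervals of -0.18 to 0.31 in SNL against sham and -0.36 to 0.13 in CBD against SNL. Nbr1, a receptor related to p62, averaged 186.5 ± 7.97 CPM in CBD, 172.3 ± 16.6 CPM in SNL and 182.2 ± 8.78 CPM in sham libraries (SD, n = 3 each). Optn (optineurin), a receptor for damaged mitochondria and bacteria, was more variable, with 27.5, 22.6 and 21.3 CPM in CBD, 29.9, 27.9 and 20.9 CPM in SNL and 22.3, 16.1 and 25.4 CPM in sham libraries. Its groups overlapped throughout, and its log2 fold change of 0.30 ± 0.19 in SNL against sham had an edgeR adjusted p of 0.505.

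Tfeb had 9.20, 9.55 and 8.80 CPM in CBD, 11.2, 12.4 and 10.4 CPM in SNL and 11.7, 10.1 and 11.1 CPM in sham libraries. All CBD libraries lay below all others. The log2 fold change was -0.30 ± 0.13 in CBD against SNL (edgeR, adjusted p = 0.356) and -0.25 ± 0.13 in CBD against sham (adjusted p = 0.372). With a transcript GC content of 61.1%, it was -0.08 in CBD against SNL and 0.07 in CBD against sham when GC- and length-adjusted, so the sign in CBD against sham turned. Lamp1, whose promoter window holds 4 E-boxes, had 326, 265 and 257 CPM in CBD, 356, 354 and 302 CPM in SNL and 292, 304 and 329.9 CPM in sham libraries. CBD 1 overlapped SNL and sham, and CBD 2 and CBD 3 lay below both. Its fitted log2 fold change was -0.26 ± 0.12 in CBD against SNL (edgeR, adjusted p = 0.386), -0.13 in CBD against sham and 0.13 in SNL against sham.

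Lamp2, the lysosomal membrane protein needed for autophagosome clearance and chaperone-mediated autophagy, had fold changes of the opposite sign to Lamp1 in both CBD comparisons. It had 92.2, 91.5 and 94.1 CPM in CBD, 78.8, 89.4 and 73.8 CPM in SNL and 66.2, 69.0 and 85.2 CPM in sham libraries. All CBD libraries lay above all SNL and sham libraries. This amounted to a log2 fold change of 0.33 ± 0.12 in CBD against sham (edgeR, adjusted p = 0.231) and 0.20 ± 0.12 in CBD against SNL (adjusted p = 0.477), or 0.11 and 0.07 when GC- and length-adjusted. The difference between the Lamp1 and Lamp2 fold changes was not tested.

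A further 93 genes of the pathway were tested, in 6 lists, and none had an adjusted p under 0.05 by edgeR in any comparison. At an unadjusted p under 0.05 were 9 higher and 13 lower in SNL against sham, 8 higher and 6 lower in CBD against SNL, and 10 higher and 11 lower in CBD against sham. The shares in the same order were 9.68% and 14%, against 5.83% and 7.96% of all genes, then 8.6% and 6.45%, against 6.5% and 7.2%, and 10.8% and 11.8%, against 7.41% and 8.87%. DESeq2 called 2, 0 and 2 of them, and limma with sample weights 0, 3 and 6, where over all genes DESeq2 called 365, 157 and 384 and limma 1, 1132 and 1051. Among 22 genes of mTORC1, TSC and AMPK signalling, which set the activity of the ULK complex, 1 was higher and 6 were lower at an unadjusted p under 0.05 in SNL against sham, 4 and 3 in CBD against SNL, and 4 and 6 in CBD against sham. For lists of this size the shares of all genes just given come to between 1 and 2 genes in each direction. Deptor, an mTOR inhibitor, averaged 28.0 ± 4.13 CPM in CBD, 28.7 ± 4.95 CPM in SNL and 17.7 ± 4.27 CPM in sham libraries (SD, n = 3 each). Its log2 fold change was 0.69 ± 0.19 in SNL against sham (edgeR, adjusted p = 0.231) and 0.70 when GC- and length-adjusted, and DESeq2 called it. In CBD against sham Deptor was at 0.66, or 0.54 when GC- and length-adjusted, and limma with sample weights called it. Mtor, the kinase itself, averaged 121.3 ± 4.28 CPM in CBD, 108.2 ± 9.9 CPM in SNL and 134.6 ± 6.76 CPM in sham libraries, at -0.32 ± 0.10 in SNL against sham (edgeR, adjusted p = 0.25).

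Ddit4 (REDD1), a stress-induced inhibitor of mTORC1, averaged 33.5 ± 11.4 CPM in CBD, 50.6 ± 5.23 CPM in SNL and 69.2 ± 9.31 CPM in sham libraries (SD, n = 3 each). Its log2 fold change was -0.60 ± 0.21 in CBD against SNL (edgeR, adjusted p = 0.312) and -0.39 when GC- and length-adjusted, and limma with sample weights called it. In CBD against sham Ddit4 was at -1.05 ± 0.21 (edgeR, adjusted p = 0.213), or -0.84 when GC- and length-adjusted, and both DESeq2 and limma called it. Akt1s1 (PRAS40), an mTORC1 component, averaged 26.3 ± 1.52 CPM in CBD, 34.2 ± 3.97 CPM in SNL and 42.8 ± 5.96 CPM in sham libraries. It stood at -0.70 ± 0.13 in CBD against sham (edgeR, adjusted p = 0.213), called by DESeq2 and limma, and at -0.31 when GC- and length-adjusted. Prkaa1, a catalytic subunit of AMPK, averaged 42.5 ± 3.46 CPM in CBD, 33.3 ± 3.14 CPM in SNL and 30.4 ± 5.07 CPM in sham libraries. It stood at 0.48 ± 0.14 in CBD against sham, called by limma, and at 0.21 when GC- and length-adjusted. Rragd, a Rag GTPase of the lysosomal surface, was at 0.32 ± 0.11 in CBD against SNL and 0.14 when GC- and length-adjusted.

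Of 22 lysosomal enzymes and membrane proteins tested, 4 were higher and 0 lower at an unadjusted p under 0.05 in SNL against sham, 0 and 1 in CBD against SNL, and 2 and 0 in CBD against sham, where 5.83% and 7.96%, 6.5% and 7.2%, and 7.41% and 8.87% of all genes were higher and lower in those comparisons. Cd63, a tetraspanin of late endosomes and lysosomes, averaged 80.4 ± 8.82 CPM in CBD, 94.2 ± 12.2 CPM in SNL and 61.8 ± 8.65 CPM in sham libraries (SD, n = 3 each). Its log2 fold change was 0.61 ± 0.14 in SNL against sham (edgeR, adjusted p = 0.21), 0.52 when GC- and length-adjusted (also at an unadjusted p under 0.05), and DESeq2 called it. The cholesterol carrier Npc2 was at -0.31 ± 0.13 in CBD against SNL (edgeR, adjusted p = 0.338). Cd63 is also expressed by glia and vessel cells. Of their summed markers, given above, those of myelin and vessels were higher by mean in SNL and those of astrocytes lower. Those of microglia overlapped between the groups. The part of these cells in the Cd63 values was not tested.

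Among 15 other genes of autophagosome formation, 2 were higher and 2 lower at an unadjusted p under 0.05 in SNL against sham, 1 and 1 in CBD against SNL, and 2 and 2 in CBD against sham. Over all genes, for this and the next 3 lists, the shares higher and lower were 5.83% and 7.96% in SNL against sham. They were 6.5% and 7.2% in CBD against SNL and 7.41% and 8.87% in CBD against sham. Trp53inp2, a nuclear and autophagosomal cofactor, averaged 216.2 ± 15.3 CPM in CBD, 298 ± 54.9 CPM in SNL and 235.6 ± 28.7 CPM in sham libraries (SD, n = 3 each), at -0.46 ± 0.15 in CBD against SNL (edgeR, adjusted p = 0.306). Among 12 further cargo and mitophagy receptors the counts were 1 and 0, 0 and 1, and 1 and 1 in the same order of comparisons. The 14 genes of fusion with the lysosome gave 1 and 3, 1 and 0, and 0 and 2. Vps33a, a subunit of the HOPS tethering complex, averaged 94.5 ± 6.37 CPM in CBD, 81.1 ± 2.73 CPM in SNL and 101.5 ± 5.32 CPM in sham libraries, at -0.32 ± 0.09 in SNL against sham (edgeR, adjusted p = 0.232) and 0.22 ± 0.09 in CBD against SNL (0.14 when GC- and length-adjusted). A list of 8 other genes linked to the transcriptional control of autophagy, not all of them transcription factors, gave 0 and 2, 2 and 0, and 1 and 0. In it Foxo1 was at -0.60 ± 0.19 in SNL against sham and Fnip1 at 0.44 ± 0.12 in CBD against SNL. Fnip1 stood at 0.14 when GC- and length-adjusted, and limma with sample weights called it in CBD against SNL as counted.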

How the data were processed

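Bulk RNA-seq of 9 hippocampal libraries was used as 1 table of expected counts per gene, deposited by the authors; the tool RSEM and the genome build GRCm39 come from the submitters' processing notes. Aligner, annotation, filters and strandedness are not given in the sources used. Of the 333 values of the 37 genes 122, in 22 genes, were not whole (tolerance 1e-06), as estimated counts need not be, and all values were rounded. Rows with a gene ID but no symbol (1606, holding 0.162% to 0.198% of counts) were kept. edgeR 4.0.16 in R 4.3.3 was used: filterByExpr (17967 genes), TMM and the quasi-likelihood test with all 3 groups (6 residual degrees of freedom), Benjamini-Hochberg adjusted over all genes; the common biological coefficient of variation was 0.192. A standard error is the log2 fold change over the root of F. DESeq2 1.42.0, limma 3.58.1, other scalings and filters, a replicate block, leave-one-out fits, and GC and length offsets (splines of 4 degrees of freedom) were alternatives. CPM use TMM library sizes. Length and GC are medians over GENCODE vM21 (GRCm38) basic protein-coding transcripts, matched by gene ID, available for 98.2% of tested genes. Scripts were tested on simulated data. Genes were named by a rule: the 4 smallest p-values in each direction and comparison, plus central genes. Of each other list, only genes with the smallest p in a direction and comparison could be named, and not all of these were. The remaining members are given by role. The members and lists were chosen with earlier results of these data known. Precision is limited by counting error and by 3 libraries per group.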

Additional observations from a re-analysis of the deposited data

How the results depend on the processing

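Rescaling with DESeq2's size factors, the filters and fitting only the 6 libraries compared kept the counts at an unadjusted p under 0.05 within 1.5 times. The medians stayed within 0.038. In CBD against SNL, however, the count was 6 with the size factors (13.7% of all genes) or no filter (9.04%). With only the 6 libraries it was 7 (13.2%), against 5 (13.7%). An adjusted p threshold of 0.1 in edgeR called 0 members in each comparison, among 2, 0 and 0 genes in all. DESeq2's Wald test called 1 member in CBD against SNL and 1 in CBD against sham, and limma with sample weights called 3 in each, with 10 at an unadjusted p under 0.05 in CBD against SNL (27.8% of all genes). GC and length offsets gave 1 member at an unadjusted p under 0.05 in SNL against sham (13.3% of all genes) and 2 in CBD against sham (6.9%). Leaving out SNL 1, SNL 2 and CBD 1 together left SNL 3 as the only SNL library, so only effect sizes and overlap are given. The medians were -0.03 in SNL against sham, -0.04 in CBD against SNL and -0.07 in CBD against sham. In the same order 20, 31 and 19 members had smaller groups that did not overlap (51.1%, 80.1% and 38.8% of all genes). The same with offsets, chosen after seeing the data, gave medians of -0.01 in SNL against sham, -0.02 in CBD against SNL and -0.01 in CBD against sham. Leaving out single libraries gave 1 to 6, 2 to 7 and 4 to 8 members at an unadjusted p under 0.05 in the same order of comparisons. The shares of all genes were 7.98% to 19.1%, 6.18% to 20% and 9.27% to 20.8%. Without overlap were 5 to 17, 9 to 21 and 11 to 19 members (17.5% to 37.9%, 19.1% to 42.2% and 21.4% to 40.3% of all genes). The medians were -0.02 to 0.04, -0.08 to -0.04 and -0.09 to -0.04. Apart from the offsets, whose construction removes the GC and length trend, and the smaller groups, the cause was not tested.

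The replicate numbers are shared by the 3 groups, but same-numbered libraries did not deviate together (correlations from -0.27 to 0.19), so they were not taken as pairs. A replicate block gave 1 member at an unadjusted p under 0.05 in SNL against sham (11% of all genes) and 2 in CBD against SNL (10.2%), and with offsets 0, 3 and 1 in SNL against sham, CBD against SNL and CBD against sham (10.8%, 4.69% and 5.26%).

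Of 820 recomputed values of named members 38 turned sign. In SNL against sham Becn1 ranged from -0.06 to 0.05 around 0.00 (0.01 with no filter, 0.03 and 0.05 in leave-one-out fits), Ulk1 was 0.00 with offsets, and Map1lc3b -0.04 in a leave-one-out fit and with offsets without the 3 libraries. There Tfeb was -0.06, with leave-one-out values from -0.02 to 0.11, Lamp1 -0.02, or -0.04 with offsets, and Pik3r4 0.01 with offsets. In CBD against SNL Becn1 was 0.02 with offsets and 0.04 also without the 3 libraries, Sqstm1 0.02 (0.03 with the block), and Ulk1 -0.04 and 0.00 in leave-one-out fits. Without the 3 libraries and with offsets Map1lc3b was 0.02 and Tfeb 0.10. In CBD against sham offsets gave Ulk1 0.15, Sqstm1 0.09 (0.08 without the 3 libraries, -0.10 to 0.01 in leave-one-out fits) and Tfeb 0.07 (0.14 without the 3 libraries), and Becn1 was 0.01 in a leave-one-out fit.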
